A study of Mus musculus with 12 samples.

Results

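The genes described here are 37 genes of the cell cycle and of DNA replication, chosen by name: the D, E, A and B cyclins, their kinases and kinase inhibitors, the retinoblastoma protein and E2F transcription factors, the replicative helicase and its loading factors, enzymes of deoxynucleotide supply, and a few kinases and markers of dividing cells. All 37 were found among the 37991 genes of the deposited table, each on a single row. RNA was sequenced from primary mouse hepatocytes of 4 groups of 3 libraries each, the combinations of 2 genotypes and 2 treatments. KO-labelled cells came from REV-ERBab double floxed male mice, aged 10 weeks, that had been given the virus AAV8-TBG-Cre-GFP 2 weeks before isolation, and control cells from such mice given AAV8-TBG-GFP. All 4 groups thus carry both floxed alleles and an AAV8 virus with a GFP gene under TBG, a hepatocyte promoter, and no group carries Cre without floxed alleles. Cells were freed with collagenase, plated on collagen in medium with serum, and given 10 µM SR9009, a compound developed as an agonist of the nuclear receptors REV-ERBα and REV-ERBβ, or its solvent DMSO, for 8 h. The series title names effects of SR9009 on proliferation and metabolism that do not need REV-ERB, so the comparisons ask which of these genes differ with genotype, which differ with SR9009 in each genotype, and whether the SR9009 differences depend on genotype.

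A resting cell enters the cycle when D cyclins with CDK4 or CDK6, then E cyclins with CDK2, phosphorylate the retinoblastoma protein, which frees E2F factors to switch on genes for DNA synthesis. Replication origins are licensed when CDC6 and CDT1 load the MCM2 to MCM7 helicase, and S and M phase follow under A and B cyclins with CDK2 and CDK1. Hepatocytes of an adult liver are mostly quiescent but can re-enter the cycle after injury, and plating them is itself a known stimulus towards early G1.

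Levels are in FPKM, fragment counts scaled by transcript length and by sequencing depth, so they can be compared between genes. A gene was tested if it reached 1 FPKM in at least 3 of the 12 libraries, which held for 11213 genes. Tests were made with limma on log2(FPKM + 1), with adjusted p below 0.05 as the threshold, and for genes of low level a log2 change on this scale is smaller than that of the FPKM. Errors after ± are SDs over 3 libraries. Each library had from 10611 to 10932 genes at 1 FPKM or more. Relative depth, with control DMSO library 1 as 100%, was lowest in control SR9009 library 1 at 55.5% and KO-labelled DMSO library 1 at 63.4%. Nothing in the labels says whether the 3 libraries of a group come from separate mice, so the p-values rest on a spread between libraries that may be only technical. The floxed gene Nr1d1 was at 22.1 ± 0.49 FPKM in KO-labelled SR9009 and 17.7 ± 0.459 in KO-labelled DMSO cells. In control cells it was at 19.5 ± 0.565 FPKM with SR9009 and 18.5 ± 0.412 with DMSO. Under SR9009 its KO-labelled libraries, at 21.5 to 22.5 FPKM, lay above the control libraries, at 19 to 20.1 FPKM. Nr1d2 was between 13.5 and 18.9 FPKM in every library. The levels of these 2 genes thus do not show a deletion in KO-labelled cells. Arntl, a clock gene known to be repressed by REV-ERB, was at 5.41 ± 0.437 FPKM in KO-labelled SR9009 and 6.49 ± 0.307 in KO-labelled DMSO cells, against 0.218 ± 0.15 in control SR9009 and 0.214 ± 0.0796 in control DMSO cells. The 10 hepatocyte markers were expressed in every group, with a summed level between 30000 and 36600 FPKM, while the 6 lymphocyte markers summed to at most 0.527 FPKM.

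Of the 37 genes, 19 were expressed in all 4 groups, meaning a mean of at least 1 FPKM over the 3 libraries of a group. Mcm2 reached that mean in the 2 KO-labelled groups and in neither control group, and the other 17 genes reached it in no group. Those 17 include Ccna2, Ccnb1, Ccnb2, Cdk1, Mki67 and Top2a. Pcna, the sliding clamp of DNA polymerases that also serves repair, ranged from 26.1 to 33.7 FPKM over the 12 libraries. Cdk4, a G1 kinase, ranged from 23.2 to 32.7 FPKM, though 604 bases of its gene model overlap Tspan31 on the opposite strand, itself at 38.6 FPKM, and their reads cannot be told apart where the strand setting is not known. Rrm2, the regulatory subunit of ribonucleotide reductase, and Plk3, a stress-inducible polo-like kinase, were the other 2 genes with a mean above 20 FPKM.

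**Figure D1:**
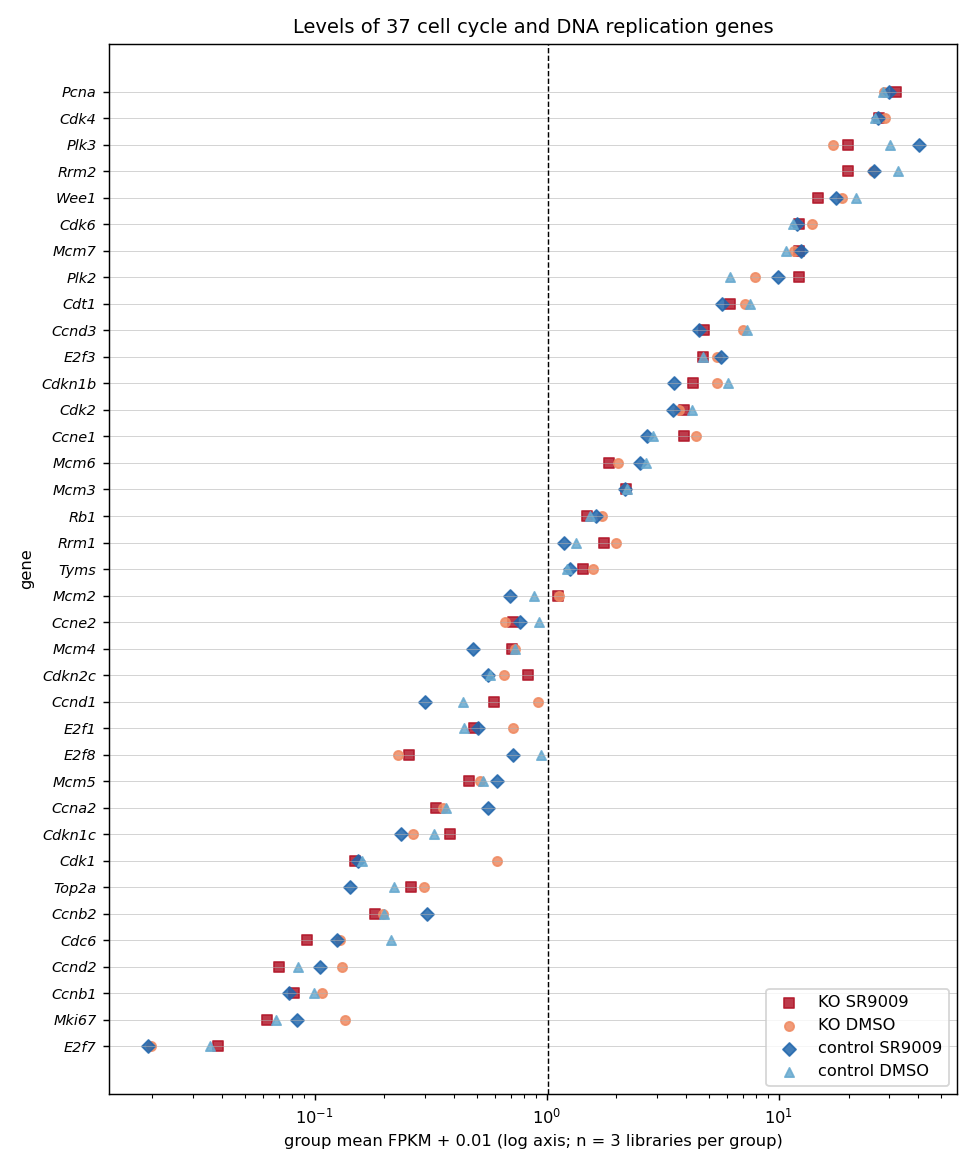
Mean level of each of the 37 genes in each group, as FPKM plus 0.01 on a log axis, with 1 marker per group of 3 libraries and a dashed line at a mean of 1 FPKM. Pcna, Cdk4, Plk3 and Rrm2 lie above 20 FPKM on average, and 17 genes have no group mean at 1 FPKM or more.

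Among the 37 genes, those of mitosis had low levels. Mki67, the gene of the proliferation marker Ki-67, ranged from 0.012 to 0.235 FPKM, and Top2a, the topoisomerase that untangles replicated chromosomes, from 0.0618 to 0.693 FPKM. Ccnb1 was between 0 and 0.212 FPKM and E2f7, an E2F repressor, was at most 0.0462 FPKM. The summed level of Ccna2, Ccnb1, Ccnb2, Cdk1, Top2a and Mki67 was 1.01 ± 0.0401 FPKM in KO-labelled SR9009, 1.64 ± 0.438 in KO-labelled DMSO, 1.26 ± 0.445 in control SR9009 and 1.06 ± 0.245 FPKM in control DMSO cells, and no group stood clear of all the others. In RNA of whole cultures, fewer cells of a type and less RNA per cell cannot be told apart. In a separate list of 37 spindle, kinetochore and checkpoint genes, 16 had a mean below 0.1 FPKM and 6 a mean of at least 1 FPKM, the highest being Bub3 at 14.5 FPKM and Pttg1 at 11.2 FPKM. Of the 7 that passed the filter, limma called 0 in any comparison, beside 8.24% to 20.4% of all tested genes in the 4 pairwise comparisons. At most 2 had an unadjusted p below 0.05 in limma, in SR9009 against DMSO in control cells, beside 2426 of all 11213 genes. So few genes cannot tell this list from all tested genes.

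With SR9009, 6 of the 20 genes that passed the filter were called in control cells, 2 higher and 4 lower, and 3 were called in KO-labelled cells, 1 higher and 2 lower. In control cells 8.24% of all tested genes were called, 3.69% higher and 4.55% lower, and 6 of 20 is a larger share. The genes were chosen with earlier results of these data known, so this share is not a test of the set. Of the 6 calls, that of Rrm2 held in 6 of 23 other settings and that of Cdt1 in 13 of 23. In KO-labelled cells 9.87% were called, 5.32% higher and 4.56% lower, so 3 of 20 is not far from it. The SR9009 and DMSO libraries did not overlap for 7 of the 20 genes in KO-labelled cells, against 32.3% of all tested genes, and for 7 of the 20 in control cells, against 25%. The median log2 change of the 20 genes was -0.05 in control cells and -0.11 in KO-labelled cells, against -0.02 and 0.00 over all tested genes. Plk2 rose and Ccnd3 and Rrm2 fell in both genotypes. Plk3 rose, and Cdkn1b and Cdt1 fell, past the threshold in control cells. Of the 10 hepatocyte markers, 4 were also lower with SR9009 in each genotype, with sums of 32300 to 33300 FPKM in KO-labelled SR9009 against 34400 to 36600 in KO-labelled DMSO libraries, and of 30000 to 31900 in control SR9009 against 33700 to 34200 FPKM in control DMSO libraries. The part of that shift in the changes described here was not tested.

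**Figure D2:**
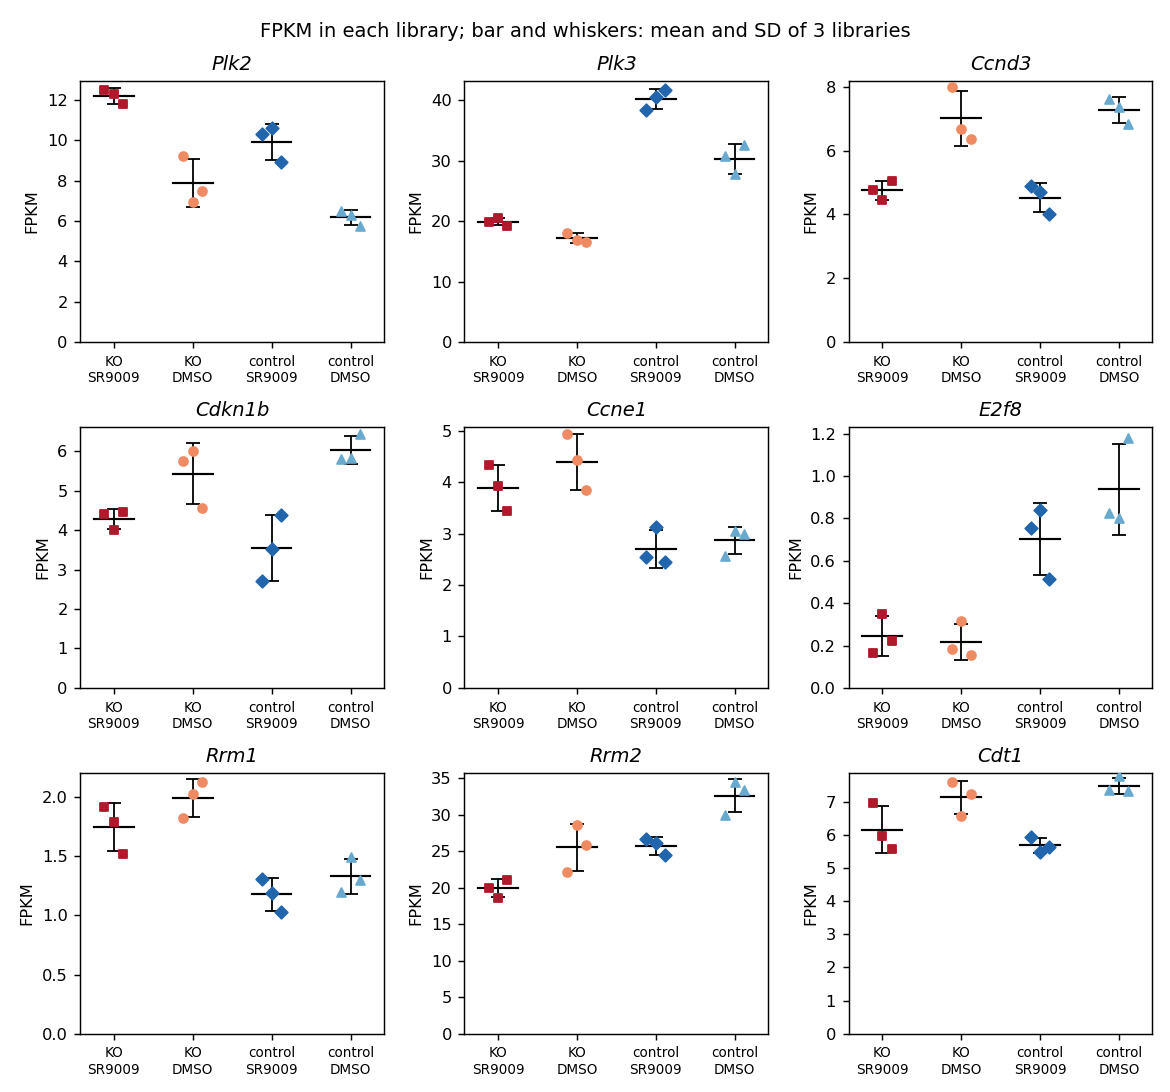
FPKM in every library for the 8 genes called in at least 1 comparison and for E2f8, with 1 panel per gene, a point per library, and a bar with whiskers at the mean and SD of 3 libraries. Plk2 is higher and Ccnd3 lower in each SR9009 group than in the DMSO group of the same genotype, and Plk3 is lower in both KO-labelled groups than in both control groups.

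The polo-like kinases Plk2 and Plk3 are early response genes induced by serum, stress and DNA damage, and unlike PLK1 they are not needed for mitosis. Plk2 (ENSMUSG00000021701, mm9 chromosome 13, 111185252 to 111191052, plus strand) had 12.5, 12.3 and 11.8 FPKM in KO-labelled SR9009 cells, against 9.2, 6.93 and 7.48 FPKM in KO-labelled DMSO cells. In control cells it had 10.3, 10.6 and 8.9 FPKM with SR9009, against 6.48, 6.31 and 5.76 FPKM with DMSO. Every SR9009 library was thus above every DMSO library of its genotype. Plk2 rose by 0.58 ± 0.10 (SE) on the log2 scale in KO-labelled cells (limma adjusted p = 0.00332) and by 0.60 ± 0.10 in control cells (limma adjusted p = 0.00314). The difference between these effects was -0.02, with a 95% interval from -0.33 to 0.29. A difference anywhere in that range remains compatible with the data. Plk2 was also somewhat higher in KO-labelled cells, at 7.87 ± 1.18 FPKM against 6.18 ± 0.374 FPKM in control cells under DMSO, a difference that did not pass the threshold (limma adjusted p = 0.056).

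Plk3 (ENSMUSG00000028680, mm9 chromosome 4, 116801260 to 116806568, minus strand) had the smallest p for genotype among the 20 genes. It had 19.9, 20.5 and 19.2 FPKM in KO-labelled SR9009 cells and 18.1, 16.9 and 16.6 FPKM in KO-labelled DMSO cells. Control cells had 38.3, 40.5 and 41.6 FPKM with SR9009 and 30.7, 27.7 and 32.6 FPKM with DMSO. All 6 KO-labelled libraries were below all 6 control libraries. Plk3 fell by 0.98 ± 0.07 (SE) in KO-labelled against control cells under SR9009 (limma adjusted p = 8.04e-07) and by 0.78 ± 0.07 under DMSO (limma adjusted p = 6.83e-06). SR9009 raised it by 0.40 ± 0.07 in control cells (limma adjusted p = 0.00432), while in KO-labelled cells the change was 0.20 ± 0.07 and did not pass (limma adjusted p = 0.104). The difference between these SR9009 effects was -0.20 with a 95% interval from -0.41 to 0.01 (limma adjusted p = 0.725), so they were not shown to differ. The ratio of Plk3 to Plk2 levels was 1.63 ± 0.0372 in KO-labelled SR9009 and 2.21 ± 0.236 in KO-labelled DMSO cells, against 4.08 ± 0.517 in control SR9009 and 4.93 ± 0.657 in control DMSO cells. This ratio was not tested. For Plk2 alone the genotype difference did not pass under SR9009 (limma adjusted p = 0.0718) or DMSO (limma adjusted p = 0.056).

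The bases before the transcription starts of Plk2 and Plk3 are shown because SR9009 raised both genes in control cells. They are from RefSeq on the build GRCm38.p6, run 5′ to 3′ on the gene's strand, and end at the base before the start. Capitals would mark any of the searched motifs, and neither stretch holds any.
Plk2, chr13:110394794-110395043, plus strand: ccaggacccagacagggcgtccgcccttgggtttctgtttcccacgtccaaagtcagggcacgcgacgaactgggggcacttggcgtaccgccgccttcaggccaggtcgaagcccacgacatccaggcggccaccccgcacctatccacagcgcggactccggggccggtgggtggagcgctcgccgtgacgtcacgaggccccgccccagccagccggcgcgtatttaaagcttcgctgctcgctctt
Plk3, chr4:117133964-117134213, minus strand: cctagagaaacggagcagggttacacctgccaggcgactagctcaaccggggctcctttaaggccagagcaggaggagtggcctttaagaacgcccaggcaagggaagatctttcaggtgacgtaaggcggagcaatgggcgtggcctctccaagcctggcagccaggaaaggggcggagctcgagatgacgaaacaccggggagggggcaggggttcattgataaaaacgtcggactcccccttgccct

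The motifs were searched on both strands of promoters of 300 bases, 250 before to 50 after a start. The E2F core was spelled TTCCCGC in its usual form, with TTGGCGC and also TTCGCGC allowed. The CCAAT box was searched by its name, the cell cycle homology region as TTTGAA and the E-box as CACGTG. The monomer site shared by REV-ERB and ROR receptors was searched as TAGGTCA and also as TGGGTCA. In the E2f8 promoter 1 match to the E2F core overlapped a CCAAT box. Of the 37 genes, 29 matched the RefSeq table, with 33 promoters. An E2F core was found in 16 of these 33, against 8.07% of all 32851 promoters, and a CCAAT box in 21 of 33, against 37.4%. The monomer site was found in 4 of 33, those of Cdc6, Cdkn2c, Mcm2 and Mcm7, against 6.45% of all promoters. The E-box was found in 5 of 33 against 7.15%, and the cell cycle homology region in 7 of 33 against 17.9%. A match is a description of the letters and not evidence of a site in use.

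Among the G1 cyclins, SR9009 lowered the D cyclin that dominates in these cells. Ccnd3 (ENSMUSG00000034165, mm9 chromosome 17, 47642000 to 47736632, plus strand) had 4.75, 4.46 and 5.04 FPKM in KO-labelled SR9009 cells, against 7.98, 6.67 and 6.37 FPKM in KO-labelled DMSO cells. With SR9009 control cells had 4.88, 4.71 and 4 FPKM of it, against 7.63, 7.36 and 6.84 FPKM with DMSO. The SR9009 and DMSO libraries did not overlap in either genotype. Ccnd3 fell by 0.47 ± 0.10 (SE) in KO-labelled cells (limma adjusted p = 0.00961) and by 0.58 ± 0.10 in control cells (limma adjusted p = 0.00353), and the difference between the effects was 0.11, with a 95% interval from -0.19 to 0.41. Under DMSO the level was 7.01 ± 0.854 FPKM in KO-labelled cells and 7.27 ± 0.402 FPKM in control cells. Bysl overlaps Ccnd3 by 353 bases on the opposite strand and stood at 18 and 16.7 FPKM on average in KO-labelled SR9009 and DMSO cells, and at 18.5 and 16.6 FPKM in control SR9009 and DMSO cells, the opposite direction to Ccnd3. The part of Bysl in the Ccnd3 result was not tested.

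Ccnd3 made up 84.6% to 95% of the summed FPKM of the 3 D cyclins, and Ccnd2 was at most 0.151 FPKM. Ccnd1, the D cyclin that rises when hepatocytes enter the cycle, did not pass the filter. It had 0.512, 0.599 and 0.638 FPKM in KO-labelled SR9009, 1.09, 0.642 and 1.01 in KO-labelled DMSO, 0.269, 0.307 and 0.288 in control SR9009, and 0.53, 0.336 and 0.418 FPKM in control DMSO cells. The KO-labelled libraries were above the control libraries within each treatment, and the SR9009 libraries below the DMSO libraries within each genotype, without overlap. A 2-sided exact permutation test gives p = 0.1 for each of these 4 comparisons, the smallest that 3 against 3 libraries allow. In a fit without the filter, Ccnd1 was called higher in KO-labelled than in control DMSO cells (log2 change 0.42, limma adjusted p = 0.028), a call lost on leaving out KO-labelled DMSO library 1 (0.0956) or 3 (0.0923) or control DMSO library 2 (0.106) or 3 (0.083). Under SR9009 it was not called (limma adjusted p = 0.11). Oraov1 overlaps Ccnd1 by 818 bases on the opposite strand and averaged 7.13 FPKM in KO-labelled SR9009 and 5.93 in KO-labelled DMSO cells, against 5.69 in control SR9009 and 4.92 in control DMSO cells, higher in KO-labelled cells as Ccnd1 was, but higher with SR9009 in both genotypes, where Ccnd1 was lower. Its part in the Ccnd1 result was not tested.

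Ccne1, the cyclin that drives the step from G1 to S with CDK2, was higher in KO-labelled cells (ENSMUSG00000002068, mm9 chromosome 7, 38883003 to 38892553, minus strand). It had 4.94, 4.43 and 3.85 FPKM in KO-labelled DMSO cells, against 2.56, 3.05 and 2.99 FPKM in control DMSO cells. Under SR9009 it had 4.33, 3.92 and 3.44 FPKM in KO-labelled cells, against 2.54, 3.12 and 2.44 FPKM in control cells. No KO-labelled library reached down to a control library of the same treatment. Ccne1 rose by 0.48 ± 0.11 (SE) under DMSO (limma adjusted p = 0.0106) and by 0.40 ± 0.11 under SR9009 (limma adjusted p = 0.0252). The call under SR9009 was lost on leaving out KO-labelled SR9009 library 1 (adjusted p 0.0942) or 2 (0.072) or control SR9009 library 1 (0.0648) or 3 (0.0732). It was also lost with quantile normalization (0.056), with only the groups compared (0.0727) and without the 2 shallowest libraries (0.0624). Its near copy Ccne2 was lower, at 0.4 to 1.34 FPKM over the 12 libraries, and was not expressed in any group.

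Among the kinases and inhibitors of G1, Cdkn1b, which encodes the CDK inhibitor p27, fell with SR9009 in control cells (ENSMUSG00000003031, mm9 chromosome 6, 134870419 to 134875531, plus strand). It had 4.4, 3.99 and 4.46 FPKM in KO-labelled SR9009 cells, against 5.74, 6 and 4.56 FPKM in KO-labelled DMSO cells. Control cells had 2.72, 3.52 and 4.39 FPKM with SR9009, against 5.81, 5.82 and 6.43 FPKM with DMSO. The groups did not overlap in either genotype, but the gap in KO-labelled cells was narrow. Cdkn1b fell by 0.64 ± 0.13 (SE) in control cells (limma adjusted p = 0.0108, and 0.0579 with only the groups compared in the fit). In KO-labelled cells it did not pass (limma adjusted p = 0.235), and the difference between the effects, 0.36 with a 95% interval from -0.04 to 0.77, was not called (limma adjusted p = 0.729). Cdk6, a partner of the D cyclins, ranged from 9.34 to 17.8 FPKM, and Cdk2 from 3.02 to 4.63 FPKM. Neither was called in any comparison, nor was Cdk4.

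Wee1, the kinase that holds CDK1 inactive, lay between 13.6 and 15.8 FPKM in KO-labelled SR9009 cells and between 17.8 and 19.3 FPKM in KO-labelled DMSO cells. In control cells it lay between 14 and 21.7 FPKM with SR9009 and between 20.7 and 22.5 FPKM with DMSO. The log2 changes with SR9009, -0.33 in KO-labelled cells and -0.30 in control cells, did not pass (limma adjusted p = 0.112 and 0.165).

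Cdt1, which brings the MCM helicase to origins, was the called gene among the licensing factors (ENSMUSG00000006585, mm9 chromosome 8, 125091915 to 125097028, plus strand). It had 6.95, 5.96 and 5.56 FPKM in KO-labelled SR9009 cells and 7.58, 6.58 and 7.23 FPKM in KO-labelled DMSO cells. In control cells it had 5.93, 5.47 and 5.63 FPKM with SR9009, against 7.36, 7.76 and 7.33 FPKM with DMSO. The control groups were well separated, and the KO-labelled groups overlapped. Cdt1 fell by 0.35 ± 0.09 (SE) in control cells (limma adjusted p = 0.032), and the difference between the effects, 0.16, had a 95% interval from -0.11 to 0.43. The call was lost on leaving out any 1 of the 6 control libraries, with adjusted p between 0.0506, without control SR9009 library 1, and 0.108, without control DMSO library 2. It was also lost with no filter (0.0575, or 0.0581 with a pseudocount of 0.1 as well), with only the groups compared (0.0825) and without the 2 shallowest libraries (0.0584). Another gene model, Gm20388, covers Cdt1 on the same strand and is listed at 0 in every library. Cdc6, the partner of Cdt1, was at most 0.255 FPKM.

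The 6 subunits of the MCM helicase work as a ring with 1 copy of each, but their transcripts differed widely. Mcm7 ranged from 9.61 to 15.8 FPKM and gave 57.8% to 67.8% of the summed FPKM of the 6 genes. Mcm5 ranged from 0.277 to 1.01 FPKM and Mcm4 from 0.197 to 0.959 FPKM. The gene model of Mcm7 overlaps Cops6 and Ap4m1 on the opposite strand by 64 and 421 bases, and Cops6 stood at 58.2 FPKM, so reads of a neighbour could be counted in it. The summed level of the 6 subunits was 18.5 ± 1.3 FPKM in KO-labelled SR9009, 18.1 ± 1.83 in KO-labelled DMSO, 18.9 ± 3.94 in control SR9009 and 17.7 ± 0.919 FPKM in control DMSO cells. No subunit was called in any comparison. Mcm2 under SR9009 came closest, with 1.05, 1.16 and 1.12 FPKM in KO-labelled cells against 0.663, 0.76 and 0.631 FPKM in control cells and a log2 difference of 0.32 (limma adjusted p = 0.0729).

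**Figure D3:**
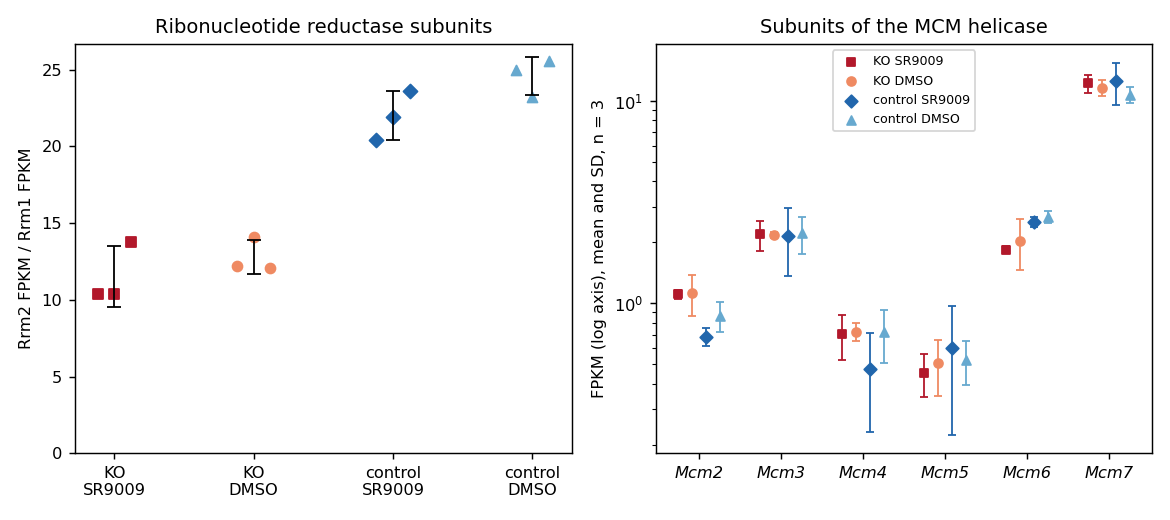
The left panel shows the ratio of Rrm2 to Rrm1 FPKM in each library, with whiskers at 1 SD either side of the group mean, and the right panel the mean and SD of FPKM over 3 libraries for each MCM subunit on a log axis. The ratio is 10.4 to 14.1 in KO-labelled libraries and 20.4 to 25.6 in control libraries, and Mcm7 lies above the other 5 subunits in every group.

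Ribonucleotide reductase, which makes deoxynucleotides for replication and repair, is built from a large subunit encoded by Rrm1 and a small subunit encoded by Rrm2. Rrm2 (ENSMUSG00000020649, mm9 chromosome 12, 25393106 to 25399011, plus strand) had 20, 18.6 and 21.1 FPKM in KO-labelled SR9009 cells and 22.2, 28.6 and 25.8 FPKM in KO-labelled DMSO cells. Control cells had 26.7, 26.1 and 24.4 FPKM with SR9009 and 30, 34.4 and 33.3 FPKM with DMSO. Control DMSO cells were highest and KO-labelled SR9009 cells lowest, with KO-labelled DMSO and control SR9009 cells overlapping between them. Rrm2 was called lower in all 4 pairwise comparisons, the only gene of the 20 for which this was so. It fell by 0.35 ± 0.09 (SE) in KO-labelled against control cells under SR9009 (limma adjusted p = 0.0148) and by 0.35 ± 0.09 under DMSO (limma adjusted p = 0.0177). With SR9009 it fell by 0.34 ± 0.09 in KO-labelled cells (limma adjusted p = 0.0343) and by 0.33 ± 0.09 in control cells (limma adjusted p = 0.0432).

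In each comparison the Rrm2 libraries of the 2 groups did not overlap, but several calls were lost under other settings. The call with SR9009 in control cells was lost in 10 of the 12 fits that left out a library, kept only without KO-labelled DMSO library 1 or 2, with adjusted p up to 0.148 without control DMSO library 2. It was also lost with no filter (0.101, or 0.0946 with a pseudocount of 0.1 as well), quantile normalization (0.052), median-ratio scaling (0.0652), no trend or robust variance (0.0615), the replicate block (0.0586) and only the groups compared (0.0704). The call with SR9009 in KO-labelled cells was lost with no filter (0.0809, or 0.0741 with a pseudocount of 0.1 as well), no trend or robust variance (0.0501) and only the groups compared (0.0634). It was also lost without KO-labelled SR9009 library 1 (adjusted p 0.0948) or 2 (0.13) or KO-labelled DMSO library 2 (0.134) or 3 (0.0983). The genotype call under DMSO was lost without KO-labelled DMSO library 1 (0.0698) or control DMSO library 2 (0.0732) or 3 (0.0607) or without the 2 shallowest libraries (0.0703), and that under SR9009 without KO-labelled SR9009 library 2 (0.0638).

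Rrm1 moved the other way with genotype, at a much lower level (ENSMUSG00000030978, mm9 chromosome 7, 109590209 to 109618285, plus strand). It had 1.82, 2.03 and 2.13 FPKM in KO-labelled DMSO cells, against 1.2, 1.49 and 1.3 FPKM in control DMSO cells. Under SR9009 it had 1.92, 1.79 and 1.52 FPKM in KO-labelled cells, against 1.31, 1.19 and 1.03 FPKM in control cells. All 6 KO-labelled libraries were above all 6 control libraries. Rrm1 rose by 0.36 ± 0.11 (SE) under DMSO (limma adjusted p = 0.0288) and by 0.33 ± 0.11 under SR9009 (limma adjusted p = 0.0409). The call under DMSO was lost without KO-labelled DMSO library 2 (adjusted p 0.0766) or 3 (0.0936), without control DMSO library 1 (0.101) or 3 (0.0791), and with quantile normalization (0.0754). The call under SR9009 was kept only without KO-labelled SR9009 library 3, KO-labelled DMSO library 1, control SR9009 library 1 or control DMSO library 2 among the 12 such fits, with adjusted p up to 0.13 in the others. It was also lost with no filter (0.0506, or 0.0544 with a pseudocount of 0.1 as well), quantile normalization (0.102), median-ratio scaling (0.061), the replicate block (0.0613) and only the groups compared (0.116). The ratio of Rrm2 to Rrm1 levels was 11.5 ± 1.99 in KO-labelled SR9009 and 12.8 ± 1.12 in KO-labelled DMSO cells, against 22 ± 1.61 in control SR9009 and 24.6 ± 1.26 in control DMSO cells. This ratio was not tested, since it was chosen after both levels had been seen.

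The bases before the starts of Rrm1 and Rrm2 are shown because the 2 subunits of a single enzyme went in opposite directions with genotype. In Rrm1, capitals mark 2 CCAAT boxes, with first bases at -91 and -45 from the start, and the E2F core TTCCCGC between them, at -67. In Rrm2 they mark a CCAAT box at -50, and no E2F core was found.
Rrm1, chr7:102441445-102441694, plus strand: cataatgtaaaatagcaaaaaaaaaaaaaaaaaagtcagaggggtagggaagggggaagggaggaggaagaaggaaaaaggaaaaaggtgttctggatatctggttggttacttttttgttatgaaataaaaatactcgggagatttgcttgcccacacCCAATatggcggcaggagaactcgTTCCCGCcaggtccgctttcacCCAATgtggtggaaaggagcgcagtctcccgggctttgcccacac
Rrm2, chr12:24708004-24708253, plus strand: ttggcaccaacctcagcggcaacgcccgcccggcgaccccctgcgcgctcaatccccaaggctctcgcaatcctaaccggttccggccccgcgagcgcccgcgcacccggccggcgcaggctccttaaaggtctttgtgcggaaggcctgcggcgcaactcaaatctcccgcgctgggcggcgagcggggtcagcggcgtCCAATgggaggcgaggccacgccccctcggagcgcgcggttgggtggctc

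Tyms, thymidylate synthase, ranged from 0.984 to 1.64 FPKM and was not called. Pcna was not called either, with a log2 change with SR9009 of 0.17 in KO-labelled cells (limma adjusted p = 0.147) and 0.09 in control cells (limma adjusted p = 0.507).

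Of the E2F factors among the 37 genes, E2f3, an activator, was expressed, and so was Rb1, which encodes the retinoblastoma protein. Other E2F genes outside the 37 had means over the 12 libraries of 29.9 FPKM for E2f4, 8.65 for E2f6 and 6.76 for E2f5. E2f3 ranged from 4.28 to 6.79 FPKM and Rb1 from 1.11 to 2.06 FPKM, and neither was called. E2f8, a repressor of E2F targets that is known in liver for its part in polyploidy, was below the filter yet differed between genotypes (ENSMUSG00000046179, mm9 chromosome 7, 56121799 to 56136966, minus strand). It had 0.164, 0.35 and 0.22 FPKM in KO-labelled SR9009 cells and 0.184, 0.315 and 0.155 FPKM in KO-labelled DMSO cells. Control cells had 0.756, 0.839 and 0.515 FPKM with SR9009 and 0.827, 0.8 and 1.18 FPKM with DMSO. All 6 KO-labelled libraries were below all 6 control libraries, and a 2-sided exact permutation test gives the smallest possible p of 0.1 under each treatment.

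In the fit without the filter, E2f8 fell by 0.67 ± 0.11 (SE) under DMSO (limma adjusted p = 0.00373), a call kept without any 1 of the 12 libraries, with adjusted p up to 0.0191. Under SR9009 it fell by 0.45 ± 0.11 (limma adjusted p = 0.0299), a call lost without KO-labelled SR9009 library 1 (0.103) or 3 (0.0955) or control SR9009 library 1 (0.0808) or 2 (0.0929). With a pseudocount of 0.1 the same differences were -1.72 and -1.23, which shows how far the pseudocount sets the size at this level. Gm2788, on the opposite strand, overlaps 3639 of the 15168 bases of the E2f8 model. It averaged 0.757 FPKM in KO-labelled SR9009 and 0.483 in KO-labelled DMSO cells, against 1.49 in control SR9009 and 1.1 in control DMSO cells, lower in KO-labelled cells as E2f8 was. Its part in the E2f8 result was not tested.

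The bases before the E2f8 start are shown because they hold the motif that E2F proteins bind. Capitals mark ATTGGCGC, in which the E2F core TTGGCGC at -111 overlaps a CCAAT box on the other strand at -112, and a cell cycle homology region on the other strand at -20.
E2f8, chr7:48881597-48881846, minus strand: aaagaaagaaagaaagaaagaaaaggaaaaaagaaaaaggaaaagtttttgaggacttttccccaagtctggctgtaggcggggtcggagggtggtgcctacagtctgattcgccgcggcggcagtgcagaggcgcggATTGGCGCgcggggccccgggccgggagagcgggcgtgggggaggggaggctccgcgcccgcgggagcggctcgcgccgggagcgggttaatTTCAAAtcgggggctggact

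**Figure D4:**
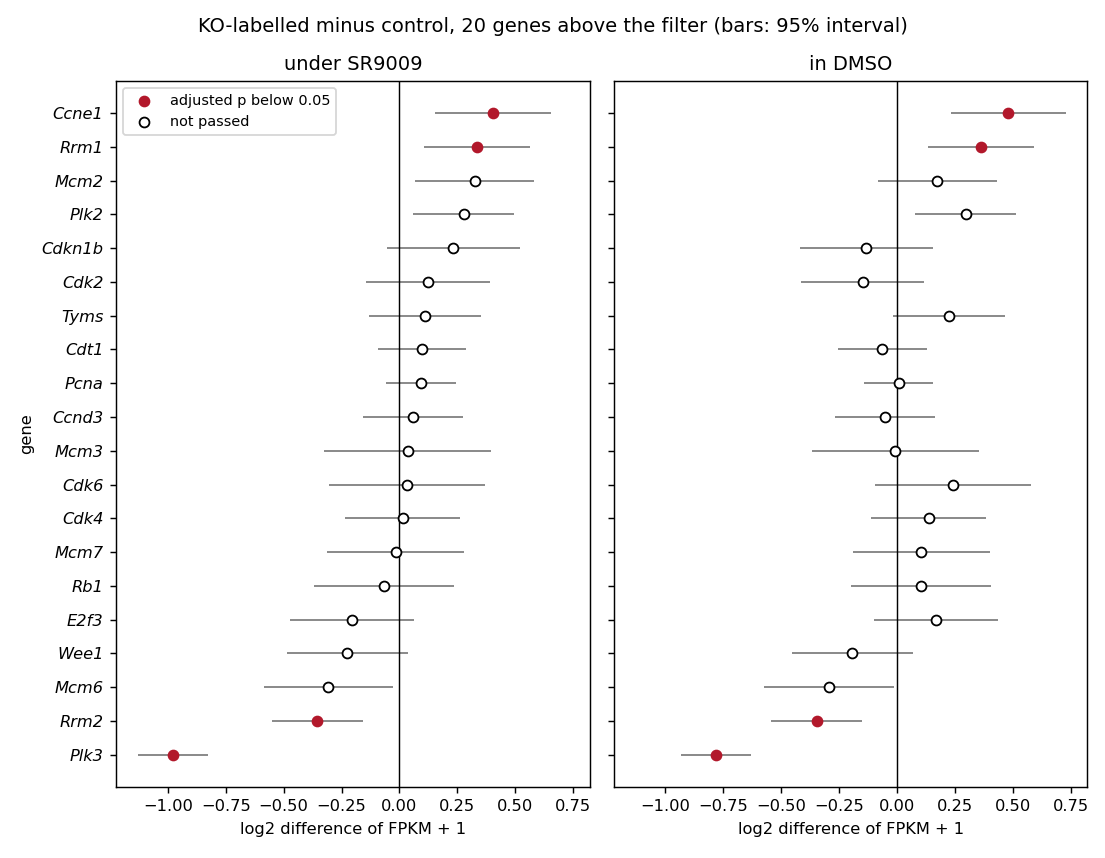
Log2 difference of KO-labelled against control cells on the log2(FPKM + 1) scale for each of the 20 tested genes, under SR9009 and under DMSO, with 95% intervals from the limma fit. Plk3 is lowest, at -0.98 and -0.78, and Ccne1 is highest under DMSO, at 0.48.

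With genotype, 4 of the 20 genes were called under SR9009 and the same 4 under DMSO. Ccne1 and Rrm1 were higher and Plk3 and Rrm2 lower. Of all tested genes 20.4% were called under SR9009, 12.9% higher and 7.43% lower, and 20% under DMSO, 11.7% higher and 8.32% lower, so a share of 4 in 20 is that of the background. The KO-labelled and control libraries did not overlap for 7 of the 20 genes under SR9009, against 34.9% of all tested genes, and for 8 of the 20 under DMSO, against 41.2%. The 2 comparisons use separate libraries but share an estimate of the spread from all 12. Whether cells of the 2 treatments came from the same mice is not in the labels. In the fit without the filter 7 of the 37 genes were called under DMSO, the 4 above with Ccnd1, Cdk1 and E2f8, against 8.31% of the 22450 genes in that fit. Cdk1, the mitotic kinase, had 0.554, 0.571 and 0.675 FPKM in KO-labelled DMSO cells, against 0.328, 0.0789 and 0.0447 FPKM in control DMSO cells. With SR9009 it had 0.213, 0.177 and 0.0301 FPKM in KO-labelled cells and 0.0233, 0.059 and 0.351 FPKM in control cells. Its call in that fit (log2 change 0.48, limma adjusted p = 0.0395) was lost with a pseudocount of 0.1 (0.105), with quantile normalization (0.0673), with the replicate block (0.077) and in 8 of the 12 fits that left out a library, the exceptions being KO-labelled SR9009 library 3, control SR9009 library 1 or 3 and control DMSO library 1, with adjusted p up to 0.141 without control DMSO library 3.

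Of the 10 hepatocyte markers, 3 were higher and 1 lower in KO-labelled than in control cells under DMSO. Under SR9009, 3 were higher and 2 lower. Of all tested genes 20% and 20.4% were called in these comparisons. Markers of other liver cells also differed with genotype. Of 8 tested markers of Kupffer cells or macrophages, 1 was higher and 4 lower in KO-labelled than in control DMSO cells, and the summed level of all 10 markers was 44.3 to 46.8 FPKM in KO-labelled SR9009 and 34.7 to 46.1 in KO-labelled DMSO libraries, against 49.6 to 52.8 in control SR9009 and 47.8 to 59.7 FPKM in control DMSO libraries. Under SR9009, 1 of these 8 was higher and 1 lower. Of 4 tested endothelial markers, 3 were higher in KO-labelled than in control cells under DMSO and 0 were called under SR9009, where 2 had an unadjusted p below 0.05 in limma, and the sum of all 8 was 10.9 to 11.1 FPKM in KO-labelled SR9009 and 11 to 16.1 in KO-labelled DMSO libraries, against 7.31 to 8.76 in control SR9009 and 7.04 to 8.02 FPKM in control DMSO libraries. None of the Kupffer cell markers averaged below 0.1 FPKM, and among endothelial markers Tek did. The part of such cells in the differences of Ccne1, Rrm1, Rrm2, Plk3 and the low genes was not tested. With SR9009 limma called 0 tested markers of either cell type in either genotype, with 2 Kupffer cell markers at an unadjusted p below 0.05 in KO-labelled cells and 0 in control cells. The 8 stellate cell markers summed to at most 2.84 FPKM, and the 1 tested was not called. Of 2 tested cholangiocyte markers, 1 was higher and 1 lower in KO-labelled cells under either treatment, and of 3 tested erythroid markers 2 were lower in KO-labelled cells under SR9009. The cholangiocyte markers summed to 29.1 to 61.7 FPKM over the 12 libraries, with Spp1 at 33.3 FPKM on average. The erythroid markers summed to 27.4 to 44.5 FPKM, with Alas2 at 31.2 FPKM on average.

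**Figure D5:**
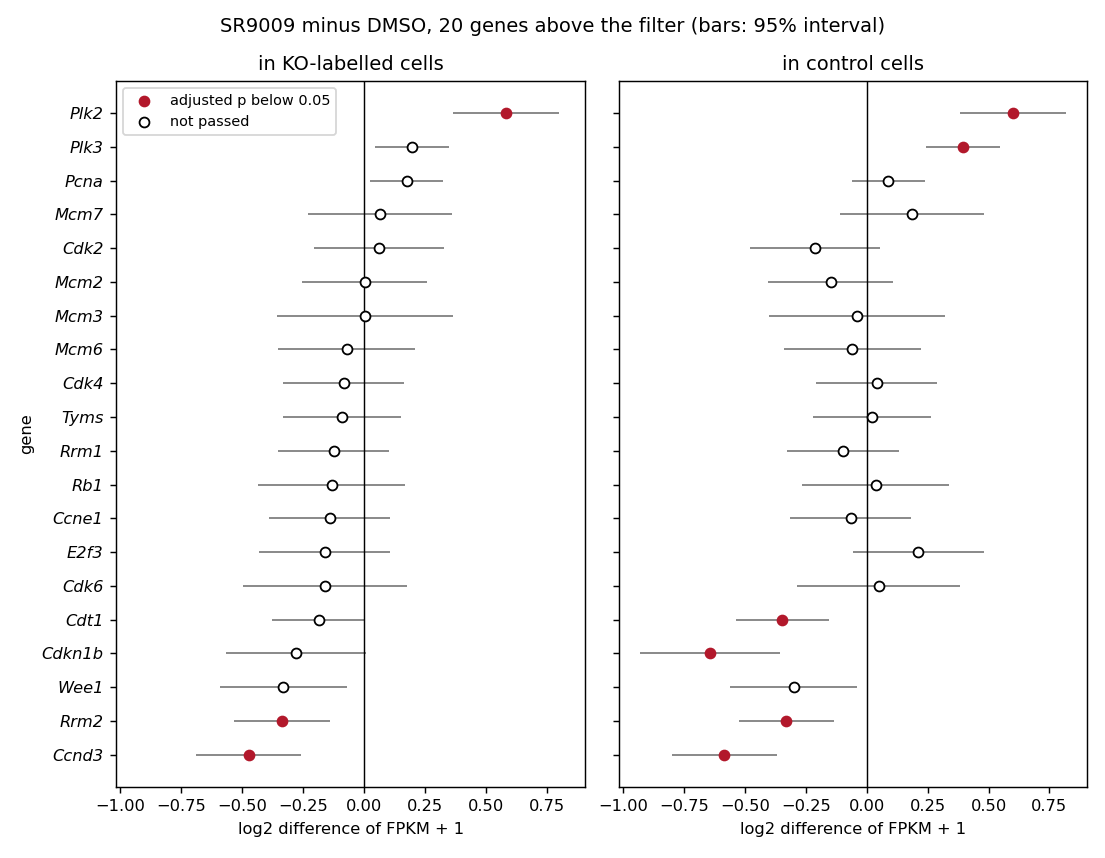
Log2 change with SR9009 on the log2(FPKM + 1) scale in KO-labelled and in control cells for each of the 20 tested genes, with 95% intervals from the limma fit. Plk2 is the highest in both genotypes, at 0.58 and 0.60, and Ccnd3 stands at -0.47 and -0.58.

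Whether SR9009 acted differently in the 2 genotypes was tested directly. No gene of the 20 was called for a difference between its SR9009 effects, and none had an unadjusted p below 0.05, beside 0.0268% of all tested genes called, which is 3 genes. The widest of the 95% intervals among genes called with SR9009 was that of Cdkn1b, so for that gene a difference of up to 0.77 on the log2 scale lies within the interval. The SR9009 effects on Plk3, Cdkn1b and Cdt1, called in control cells and not in KO-labelled cells, are therefore not shown to differ between genotypes. For Rrm2, called in both, the difference between the effects was -0.01 with a 95% interval from -0.29 to 0.27.

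Other regulators of the cycle, taken from lists of genes chosen by function, give the setting. Of 29 tested cyclins, CDKs and CDK regulators, 4 were higher and 0 lower in KO-labelled cells under DMSO, and 5 higher and 2 lower under SR9009, beside 20% and 20.4% of all tested genes. With SR9009, 1 was higher and 2 lower in KO-labelled cells, and 1 higher and 3 lower in control cells, beside 9.87% and 8.24% of all tested genes. The median log2 change of the list was 0.03 and 0.06 for these genotype comparisons (DMSO and SR9009), beside 0.04 and 0.06 over all tested genes.

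Cdkn1a, which encodes the p53-inducible CDK inhibitor p21, was the most abundant gene named here. It averaged 190 ± 4.13 FPKM in KO-labelled SR9009 and 209 ± 3.5 in KO-labelled DMSO cells, against 115 ± 3.18 in control SR9009 and 147 ± 6.84 FPKM in control DMSO cells. It rose in KO-labelled cells by 0.72 on the log2 scale under SR9009 (limma adjusted p = 5.49e-07) and by 0.51 under DMSO (limma adjusted p = 1.25e-05), and fell by 0.35 with SR9009 in control cells (limma adjusted p = 0.000998). Cdkn2b, which encodes the CDK4 and CDK6 inhibitor p15, rose with SR9009, averaging 15.4 ± 0.668 FPKM against 7.39 ± 1.24 with DMSO in KO-labelled cells (log2 change 0.97, limma adjusted p = 9.45e-05). In control cells it averaged 9.28 ± 0.536 FPKM with SR9009 against 5.99 ± 0.424 with DMSO (0.56, limma adjusted p = 0.0053).

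Ccng1, cyclin G1, another p53 target, averaged 16.4 ± 0.858 FPKM in KO-labelled SR9009 and 20.5 ± 0.905 in KO-labelled DMSO cells, against 10.7 ± 0.694 in control SR9009 and 14.8 ± 0.371 FPKM in control DMSO cells. It was called in all 4 comparisons, higher in KO-labelled cells and lower with SR9009. The call with SR9009 in KO-labelled cells was lost without KO-labelled SR9009 library 1 or 2 or KO-labelled DMSO library 3, with adjusted p up to 0.0628. Ccnf, which encodes cyclin F, averaged 1.71 ± 0.386 FPKM in KO-labelled SR9009 and 3.12 ± 0.125 in KO-labelled DMSO cells, against 0.713 ± 0.138 in control SR9009 and 1.19 ± 0.201 FPKM in control DMSO cells. It fell by 0.61 with SR9009 in KO-labelled cells (limma adjusted p = 0.00797) and was higher in KO-labelled than control cells by 0.66 under SR9009 (limma adjusted p = 0.00227) and 0.92 under DMSO (limma adjusted p = 0.000217). CCNF is known to target RRM2 protein for degradation, a step that RNA levels do not show.

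A further list held 10 tested pocket proteins and E2F, DREAM and MYB factors outside the 37. With SR9009, 1 was higher and 1 lower in KO-labelled cells, beside 9.87% of all tested genes called. In control cells 0 were higher and 1 lower, beside 8.24%. With genotype, 1 was higher and 0 lower under SR9009, beside 20.4%, and 0 were called under DMSO, beside 20%. Rbl2, the pocket protein p130 of quiescent cells, was called in 3 comparisons. It averaged 3.02 ± 0.128 FPKM in KO-labelled SR9009 and 4.43 ± 0.306 in KO-labelled DMSO cells, against 2.08 ± 0.439 in control SR9009 and 3.56 ± 0.117 FPKM in control DMSO cells. With SR9009 it fell by 0.43 in KO-labelled cells (limma adjusted p = 0.0222) and by 0.58 in control cells (limma adjusted p = 0.0057). Under SR9009 it was higher in KO-labelled than in control cells by 0.40 (limma adjusted p = 0.0188), a call kept in 16 of 22 other settings. Tfdp1, the dimer partner of E2F factors, was the other gene called, higher with SR9009 in KO-labelled cells (0.28, limma adjusted p = 0.0493).

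Of 40 other tested DNA replication genes, with SR9009 0 were higher and 1 lower in KO-labelled cells, and limma called 0 in control cells, with 10 of the 40 at an unadjusted p below 0.05 in each genotype, beside 2564 of all 11213 genes in KO-labelled cells and 2426 in control cells, which is close to that share. With genotype, 3 were higher and 1 lower under SR9009, and 2 higher and 1 lower under DMSO. Of all tested genes 20.4% and 20% were called in these genotype comparisons, a larger share than in the list. With SR9009, 9.87% of all tested genes were called in KO-labelled cells and 8.24% in control cells. Rpa1, of the single-strand binding complex, was the firmest, with 4.18 ± 0.784 FPKM in KO-labelled SR9009 against 2.51 ± 0.274 FPKM in control SR9009 cells (log2 change 0.55, limma adjusted p = 0.00467). Lig1, which joins Okazaki fragments, averaged 3.09 ± 0.842 FPKM in KO-labelled DMSO against 1.61 ± 0.418 FPKM in control DMSO cells (0.64, limma adjusted p = 0.0128). Rpa3, of the same complex as Rpa1, averaged 3.17 ± 0.889 FPKM in KO-labelled DMSO against 4.93 ± 0.39 FPKM in control DMSO cells (-0.53, limma adjusted p = 0.0406). Under the other treatment neither was called for genotype. Rpa1 averaged 3.52 FPKM in KO-labelled DMSO and 3.19 in control DMSO cells, and Rpa3 3.86 in KO-labelled SR9009 and 3.66 in control SR9009 cells. Orc3 was called higher in KO-labelled cells under SR9009 (0.26, limma adjusted p = 0.0366) and under DMSO (0.26, limma adjusted p = 0.0368). These calls were kept in 9 and 11 of 23 other settings.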

How the data were processed

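RNA was measured in 12 libraries of plated hepatocytes. The submitters' processing notes name HISAT2, StringTie and the mouse build mm9, and neither their versions, the annotation nor the strand setting is given in the sources used here. In the table that the authors deposited, no header names a unit. FPKM was inferred for the deposited values because the sums of the libraries differed, from 538521 to 604449. No total read count was used, and relative depth came from the steps between low values.

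Values were transformed to log2(FPKM + 1), and genes at 1 FPKM or more in at least 3 libraries were kept. A model with 4 group means was fitted in R 4.3.3 with limma 3.58.1, using its trend and robust options. The p-values were adjusted over all 11213 genes by the Benjamini-Hochberg method. The same fit was also run on simulated data. No 2 libraries shared more than 0.0535% equal values. Tables were handled with pandas 2.3.3, and exact tests were 2-sided.

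The genes, the lists (other cyclins and CDK regulators, pocket proteins and E2F factors, replication, mitosis, and markers of 7 cell types) and the tests were chosen with earlier results of these data known. Genes past the threshold in any comparison are given by library, the rest by range, list genes by the smallest p, up to 3 per direction, some of which are left out, and low genes such as E2f8, Ccnd1 and Cdk1 were added after their values were seen. All 55 replication genes but Claspn were matched. Alternatives changed the pseudocount, filter, scaling, variance model, libraries and replicate block.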

Additional observations from a re-analysis of the deposited data

How the results depend on the processing

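Over 17 effects of single genes called in a comparison and 23 other settings, 387 values were computed, of which 320 kept their direction and side of the threshold, 67 kept direction only, and 0 reversed. The calls of Plk2, Plk3 and Ccnd3 held in every setting that gave a value, as did Ccne1 under DMSO. Leaving out a library in turn gave 2 to 5 called genes of the set for genotype under DMSO (2 without control DMSO library 3), 1 to 5 for genotype under SR9009 (1 without KO-labelled SR9009 library 2, 2 without KO-labelled SR9009 library 1), 4 to 6 for SR9009 in control cells and 2 to 4 for SR9009 in KO-labelled cells. Without the filter 7 were called for genotype under DMSO, more genes being tested. For genotype under SR9009, 2 were called with a filter of 5 FPKM and 2 with only the groups compared in the fit, and 3 were called with only the groups compared in the fit for SR9009 in control cells. Over all genes, leaving out a library gave 530 to 919 calls for SR9009 in control cells (924 with all libraries), 603 to 1438 for SR9009 in KO-labelled cells (1107), 1607 to 2718 for genotype under DMSO (2240), 1651 to 2253 for genotype under SR9009 (2283) and 0 to 5 for the interaction (3). With only the groups compared in the fit there were 376 calls for SR9009 in control cells and 1518 for genotype under SR9009, and without the 2 shallowest libraries 609 for SR9009 in control cells, and the cause was not tested. For the interaction the count was 1 without the filter, with quantile normalization, without trend or robust variance, without the 2 shallowest libraries, or with no filter and a pseudocount of 0.1 (chosen after seeing the data), and 0 with the replicate block. Whether replicate numbers pair the libraries is not in the labels. Deviations from the group means correlated between -0.112 and 0.122 for same-numbered libraries and between -0.117 and 0.181 for the others. Of 12 libraries, 5 were closest to their own number. With means of only 3 libraries, these correlations cannot exclude a shared mouse or plate. With the replicate block, Rrm2 with SR9009 in control cells had an adjusted p of 0.0586, Rrm1 by genotype under SR9009 0.0613, and, in the fit without the filter, Cdk1 by genotype under DMSO 0.077 and E2f8 by genotype under SR9009 0.0536. Rescaling moved the median of all genes by at most 0.06 (log2), and for genotype under SR9009 the share of higher calls was 63.5%, or 49.2% with median-ratio scaling. Among list genes, Cdkn1a, Cdkn2b, Ccnf and Rpa1 held in every setting that gave a value. Rpa3 held in 14 of 22 settings, Lig1 in 18 of 22, Tfdp1 in 9 of 23, Ccng1 with SR9009 in KO-labelled cells in 20 of 23 and Rbl2 with SR9009 in KO-labelled cells in 16 of 22. Levels below about 0.1 FPKM rest on few fragments, and depth in reads is unknown.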
